A study of Mus musculus with 13 samples.

Results

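INK4a null melanomas were compared with INK4a heterozygous melanomas, using 7 arrays out of the 13 in the series, chosen by genotype label: 4 labelled Ink4a Null (tumors 1.2, 2.2, 3 and 7.2) and 3 labelled Ink4a Heterozygous (tumors 15, 5.2 and 6.2). The remaining 6 arrays, from ARF-deficient melanomas (5 heterozygous and 1 null), were not compared and entered only the estimate of the spread. The titles of those 6 name Ink4a where their genotype labels name ARF, and the genotype labels were followed. In both INK4a groups the mice carried an inactivating mutation of INK4a, on both alleles in null and on 1 allele in heterozygous animals, together with an HGF/SF transgene driven by a metallothionein gene promoter. All were of a mixed background of about 90% FVB/N and 10% C57BL/6 and were exposed to UV once at 3.5 days of age. The age at which tumors were taken was not stated in any source used here. Whether the heterozygous tumors had lost the remaining INK4a allele is not given in the labels, and neither is the mouse that each tumor came from, so each p-value is set by variation from tumor to tumor, which may be smaller than that from mouse to mouse.

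INK4a is a protein of the Cdkn2a gene that binds the cyclin D kinases CDK4 and CDK6 and blocks them. RB then stays unphosphorylated, and the E2F factors that switch on the genes of DNA synthesis are held back. ARF, read from the same gene in another frame, acts on the p53 pathway by binding MDM2. HGF/SF is the ligand of the receptor MET, and in the skin of these mice it acts on melanocytes that lie in the epidermis and dermis, which are the source of the UV-induced melanomas.

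Each tumor's RNA was hybridized to its own Affymetrix mouse array, and 22626 probe sets were tested after 64 Affymetrix control probe sets were set aside. The methods name an array design that holds more probe sets than the table, so shares here are of the probe sets in the table, which may be part of that array or come from another design. In the deposited table the median of the 13 arrays has been subtracted from every probe set, so a value of 0 is the middle tumor of the series, and a value says how far a tumor lies above or below it, not how much RNA there is. The log base is not stated; values were read as log2, and a difference of 1 is 2-fold on that reading alone. The files used here identify probe sets by number and give no gene beside them. The comparison is therefore described by probe set, by size and by tumor, and genes can be named only for the control probe sets that carry a transcript in their name. For the same reason Cdkn2a itself, the melanocyte markers and the markers of other skin cells were not examined, and neither the genotype labels nor the labelled tissue could be checked against them. In whole tumors, fewer cells of a type and less RNA per cell cannot be told apart.

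The 7 tumors did not fall into 2 sets by genotype over the 22626 probe sets. The pair most alike was heterozygous tumors 15 and 6.2, whose values correlated across probe sets with a Pearson r of 0.717, and 151 probe sets stood more than 2 log2 units above the series median in both. The third heterozygous tumor, 5.2, correlated at -0.196 with tumor 15 and at -0.228 with tumor 6.2. It was closest to null tumor 1.2, with r of 0.597, and in both of them 140 probe sets lay below the median by more than 2 log2 units. Null tumors 1.2, 2.2 and 7.2 correlated with one another at 0.270 to 0.565. Null tumor 3 correlated below 0 with each of these, at -0.122 to -0.323, and at 0.160 and 0.174 with heterozygous tumors 15 and 6.2. These correlations are across probe sets of the same arrays, which are not independent replicates and share the centring.

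**Figure D1:**
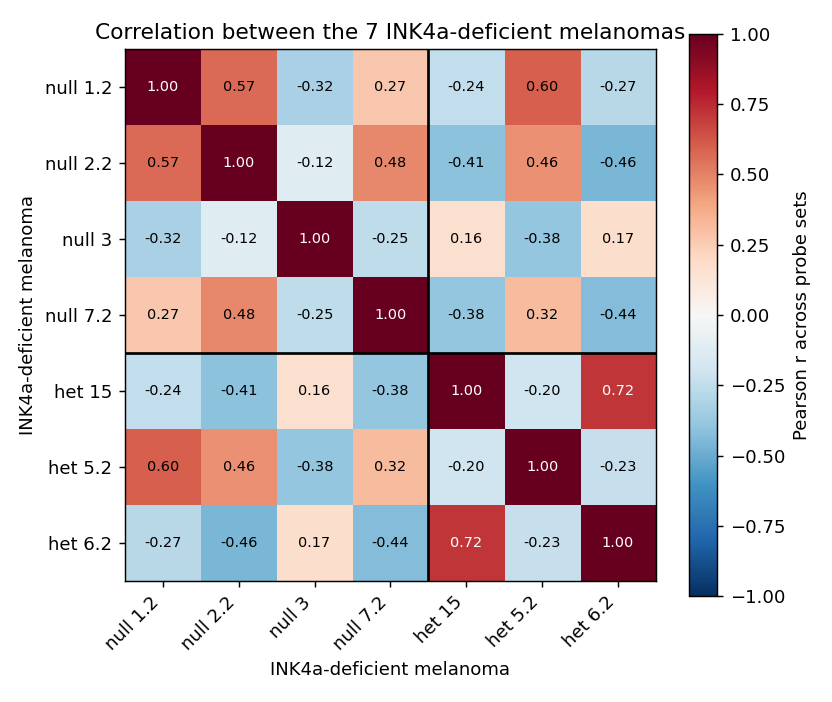
Pearson correlation across 22626 probe sets between each pair of the 7 INK4a-deficient melanomas, null tumors first, with lines between the genotypes. Heterozygous tumor 5.2 groups with null tumors 1.2, 2.2 and 7.2, and null tumor 3 lies nearer to heterozygous tumors 15 and 6.2 (0.160 and 0.174) than to its own group.

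Among the 7 arrays, 54.3% of the variance lay on the first principal component, which followed this grouping. Null tumors lay at -50.2 (1.2), -43.9 (2.2), 32.2 (3) and -36.4 (7.2), whereas heterozygous tumors lay at 59.9 (15), -47.7 (5.2) and 86.0 (6.2). The ranges overlapped, and the difference in means did not pass the threshold (exact permutation test over 35 splits, two-sided, p = 0.229, Benjamini-Hochberg adjusted 0.343 over 3 components; 0.0286 is the smallest p these group sizes allow). On the second component, with 17.8% of the variance, null tumors ran from -44.9 to 28.7 and heterozygous tumors from 9.45 to 38.6 (exact permutation p = 0.114, adjusted 0.343). Null tumor 1.2 was the single null tumor inside the heterozygous range on that axis.

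Against this background, 29 of the 22626 probe sets (0.128%) differed between null and heterozygous melanomas at an adjusted p under 0.05 in limma. Of these, 17 (0.0751% of those tested) were higher and 12 (0.053%) lower in null tumors. The differences were of moderate size: among the 17 they ran from 0.72 to 2.28, with a median of 0.98, and among the 12 the size ran from 0.56 to 1.83, with a median of 1.09. In all, 16 of the 29 differed by at least 1. The adjusted p-values ran from 0.0145 to 0.0491. In each of the 29 the 4 null tumors lay wholly on one side of the 3 heterozygous tumors, with a space between the groups of 0.34 to 1.79. The 29 were chosen by this same contrast, which favours such separation, so it is a description. Over all probe sets tested, the groups did not overlap at 11.2%.

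The count of 29 moved widely with the arrays in the fit and with their treatment. With the ARF arrays left out and the 7 INK4a arrays alone limma gave 0 (2885 at an unadjusted p under 0.05). With quantile normalization of all 13 arrays the count was 1. That normalization was run on the centred values, so it gave all arrays the same distribution of departures from the series median. With array weights the count was 3149. Among the INK4a tumors, it was 0 without null tumor 2.2 (2320 unadjusted) and 0 without heterozygous tumor 6.2 (1822 unadjusted), 3 without null tumor 3, 12 without null tumor 7.2 and 19 without heterozygous tumor 15. It rose to 175 without null tumor 1.2 and to 620 without heterozygous tumor 5.2, the pair that resembled each other across genotypes, and all 29 were among the calls in both of these fits. Of the ARF arrays, leaving out heterozygous tumor 8 gave 63, and leaving out heterozygous tumor 9 or 14 or null tumor 10 gave 9. Because the fits without null tumor 2.2 or heterozygous tumor 6.2 gave 0, none of the 29 could pass in all 7 fits that left out an INK4a tumor. All 29 had an unadjusted limma p under 0.05 in each of the 7. They were chosen at an unadjusted limma p of at most 6.29e-05 on mostly the same arrays, so the choice favoured that outcome.

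The probe set with the smallest p, 1437997_x_at, was higher in null melanomas. It stood at 0.19, 0.19, 0.06 and 0.20 in null tumors 1.2, 2.2, 3 and 7.2, against -0.68, -0.82 and -0.94 in heterozygous tumors 15, 5.2 and 6.2. The null tumors lay close to the series median and the heterozygous tumors well below it. The difference was 0.98 (standard error 0.10, limma adjusted p = 0.0145). The ending _x_at is Affymetrix's mark for a probe set with probes that can also match other transcripts, so its signal may come from more than 1 gene.

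Probe set 1451518_at was also higher in null melanomas. Null tumors 1.2, 2.2, 3 and 7.2 stood at 0.17, 0.20, 0.57 and 0.20, and heterozygous tumors 15, 5.2 and 6.2 at -0.77, -0.55 and -0.60. As before, the larger departure from the series median was in the heterozygous tumors. The difference was 0.92 (standard error 0.11, limma adjusted p = 0.0145).

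Among the probe sets lower in null melanomas, 1428306_at had the smallest p and, with 1.83, the largest difference of the 12. Its values were -0.58, -0.97, -1.49 and -1.20 in null tumors 1.2, 2.2, 3 and 7.2, against 0.56, 0.91 and 0.85 in heterozygous tumors 15, 5.2 and 6.2. Here both groups departed from the median, in opposite directions, and the null tumors departed further. The difference was -1.83 (standard error 0.21, limma adjusted p = 0.0145). Heterozygous tumor 5.2, which resembled null tumors across the array, stood highest of the 7 at this probe set.

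Probe set 1422974_at was lower in null melanomas as well, at 0.04, -0.33, -0.28 and -0.09 in null tumors 1.2, 2.2, 3 and 7.2, against 1.32, 0.94 and 0.75 in heterozygous tumors 15, 5.2 and 6.2. The null tumors were near the series median and the heterozygous tumors above it. The difference was -1.17 (standard error 0.15, limma adjusted p = 0.0228).

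**Figure D2:**
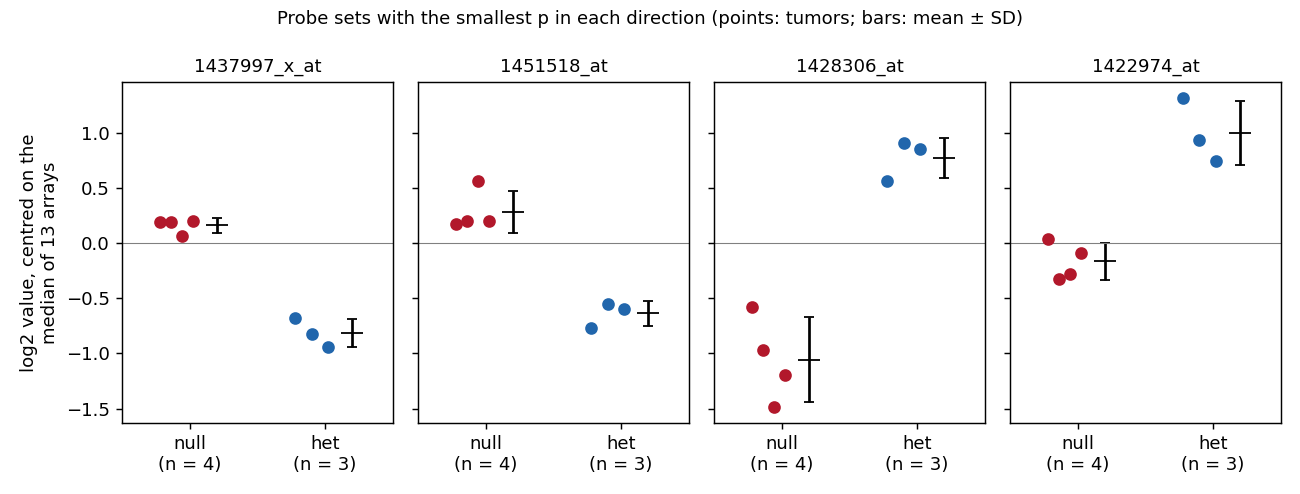
Centred log2 values of the 4 named probe sets, 2 of them higher and 2 lower in INK4a null melanomas, with 1 point per tumor, null left and heterozygous right, and the mean ± SD beside the points. The groups do not overlap in any of the 4, and in 3 of them the heterozygous tumors lie farther from 0 than the null tumors. The 4 were chosen by this same contrast.

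The same layout held for most of the called probe sets. In 26 of the 29, the mean of the heterozygous tumors lay farther from the series median than the mean of the null tumors. That median is set by 13 arrays, of which 3 are heterozygous, so this smaller group can lie farther from it by construction. Over the 17 higher probe sets, the group means had a median of 0.28 in null tumors and -0.76 in heterozygous tumors. Over the 12 lower ones, the medians were -0.29 in null tumors and 0.78 in heterozygous tumors. Of the single values at the 29 probe sets, 89 of 116 in null tumors lay within 0.5 of the series median, and 15 of 87 in heterozygous tumors did. The 6 ARF-deficient tumors take part in that median and in the spread, so a probe set at which they vary little is easier to call. The same counts were not made over all 22626 probe sets, so no share stands beside them. The 29 were chosen by this same contrast, and their layout is a description that does not say which genotype changed.

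All 3 heterozygous tumors, tumor 5.2 included, lay on the same side of the null tumors at each of the 29. The 29 were chosen by this contrast, so the medians by tumor describe that choice. Over the 17 higher probe sets, the 4 null tumors had medians of 0.17 (1.2), 0.33 (2.2), 0.34 (3) and 0.24 (7.2), whereas the medians in heterozygous tumors 15, 5.2 and 6.2 were -0.66, -0.70 and -0.85. Over the 12 lower ones, null tumors 1.2, 2.2, 3 and 7.2 had medians of -0.30, -0.31, -0.27 and -0.15, and heterozygous tumors 15, 5.2 and 6.2 had 0.57, 0.82 and 0.86. No single tumor stood apart within its own group at these medians by as much as the groups differed.

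**Figure D3:**
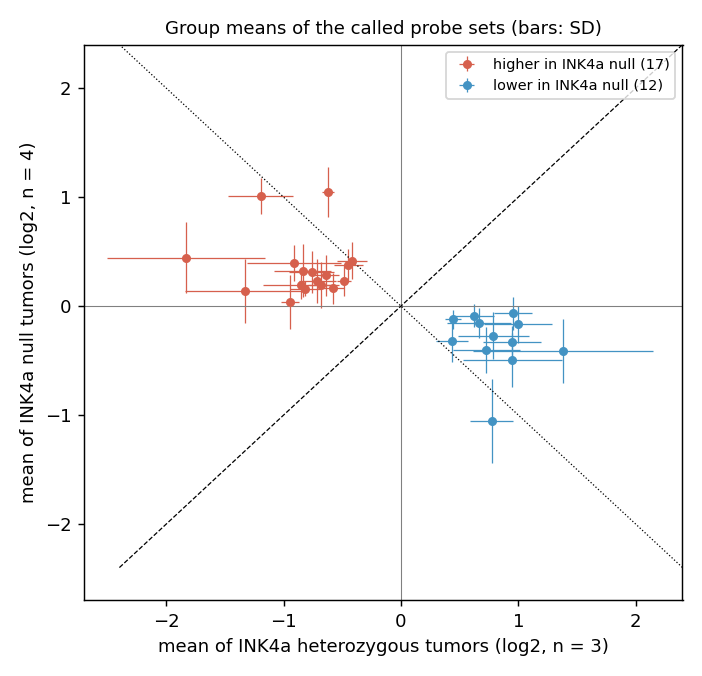
Mean of the 4 INK4a null tumors (vertical) against the mean of the 3 INK4a heterozygous tumors (horizontal) for the 29 called probe sets, in centred log2 values with SD bars; the dashed line marks equal means and the dotted line marks equal distance from 0 in opposite directions. Of the points, 26 lie where the heterozygous mean is farther from 0 than the null mean. The 29 were chosen by this contrast, and 3 of the 13 arrays that set the 0 are heterozygous.

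By the endings of their identifiers, 21 of the 29 were plain _at probe sets, of 15605 tested. A further 4 were _a_at probe sets, which match several transcripts of 1 gene, of 4040 tested. Those whose signal can be shared between genes were 2 _s_at probe sets, of 1469 tested, and 2 _x_at probe sets, of 1512 tested, and these 4 were all higher in null melanomas. Over all classes 0.128% of the probe sets tested were called, and 17 of the 29 were higher. At an unadjusted p under 0.05, the share called was 13.2% of _at, 15% of _a_at, 17.5% of _s_at and 17.1% of _x_at probe sets, against 14.1% of all.

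Before adjustment, 3185 probe sets (14.1% of those tested) had a limma p under 0.05, 2158 higher (9.54%) and 1027 lower (4.54%) in null melanomas. Without regard to any test, the groups did not overlap at 2536 probe sets (11.2%), 1887 with every null tumor above every heterozygous tumor (8.34%) and 649 with every null tumor below (2.87%). The higher kind was the larger under other scalings of the arrays too, but by less. The higher and lower kinds numbered 1411 against 907 with quantile normalization of the centred values. With each array centred on its own median they numbered 1570 against 871. The median difference over all probe sets was 0.04, and null tumors had the higher mean at 58.1% of them. Most of the separations were narrow, since a space of at least 0.5 between the groups was found at 65 higher and 75 lower probe sets, and a space of at least 1 at 6 higher and 11 lower ones.

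The balance of directions turned with the size of the difference. Differences of at least 0.25 were higher in null tumors at 4806 probe sets and lower at 4028, whereas differences of at least 0.5 were higher at 1837 and lower at 2190. Differences of at least 1 were higher at 270 (1.19%) and lower at 869 (3.84%), and those of at least 2 were higher at 15 (0.0663%) and lower at 209 (0.924%). The large lower differences were also the less certain ones. Of the 869 probe sets lower by at least 1, 360 (41.4%) had an unadjusted p under 0.05 and 177 (20.4%) had groups that did not overlap. Of the 270 higher by at least 1, 193 (71.5%) had an unadjusted p under 0.05 and 133 (49.3%) did not overlap. The median standard error was 0.76 for the lower and 0.44 for the higher probe sets of this size, against 0.19 over all probe sets.

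**Figure D4:**
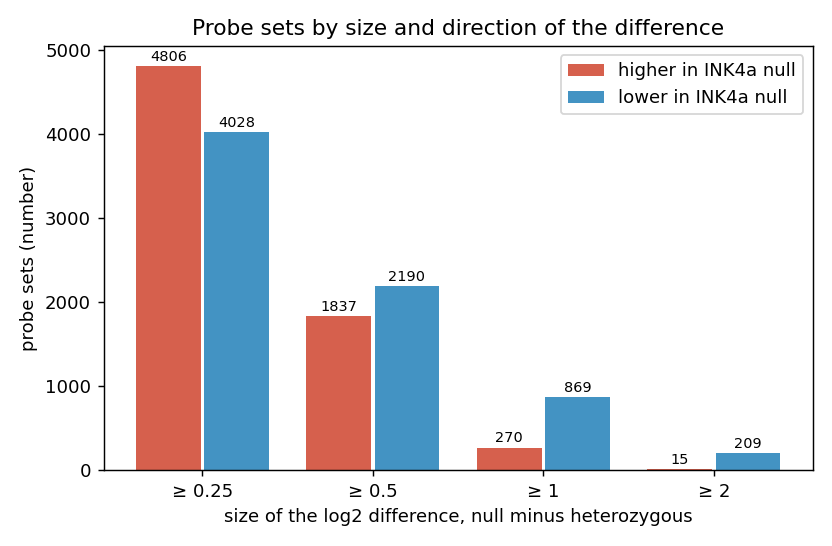
Number of probe sets whose log2 difference, null minus heterozygous, reached the size on the horizontal axis, higher (left bar) and lower (right bar) in INK4a null melanomas, without regard to any test. Higher differences are the more numerous at 0.25 (4806 against 4028) and lower ones at 2 (209 against 15).

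The probe sets lower in null tumors by at least 1 combined high values in some heterozygous tumors with low values in some null tumors. They were chosen by that difference, so their values by tumor are a description. Over these 869, null tumors 1.2, 2.2, 3 and 7.2 had medians of -0.86, -0.81, 0.14 and -0.57. Heterozygous tumors 15, 5.2 and 6.2 had medians of 1.18, -0.43 and 1.94. Tumor 5.2 thus lay with the null tumors, below the series median, and null tumor 3 above it. At 457 of the 869, tumors 15 and 6.2 both stood above 1 and tumor 5.2 below 1, and at 22 all 3 heterozygous tumors stood above 1. A further 198 were above 1 in tumor 6.2 alone of the heterozygous tumors, and 62 in tumor 5.2 alone. On the null side, 511 of the 869 had at least 1 null tumor below -1, and 796 had a null mean below 0.

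The pattern was sharper among the 209 probe sets lower by at least 2, which were chosen in the same way. Null tumors 1.2, 2.2 and 7.2 had medians of -2.28, -1.93 and -1.83, and null tumor 3 had a median of 0.85. In heterozygous tumors 15, 5.2 and 6.2 the medians were 2.11, -1.56 and 2.93. At 175 of the 209, tumors 15 and 6.2 were above 1 and tumor 5.2 below 1, and at 177 at least 1 null tumor was below -1. The groups did not overlap at 29. None of the 209 passed the adjusted threshold, and 74 had an unadjusted p under 0.05 in limma. These probe sets set tumors 15, 6.2 and 3 apart from the other 4, a division that crosses the genotypes. Which transcripts they report is not known here.

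The 270 probe sets higher in null tumors by at least 1 were spread more evenly over the tumors. Null tumors 1.2, 2.2, 3 and 7.2 had medians of 0.05, 0.42, 0.23 and 0.47, against -0.82, -0.45 and -1.18 in heterozygous tumors 15, 5.2 and 6.2. Here the medians of all 3 heterozygous tumors lay below those of all 4 null tumors. The 270 were chosen by this same difference, which favours such an order, so it is a description.

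**Figure D5:**
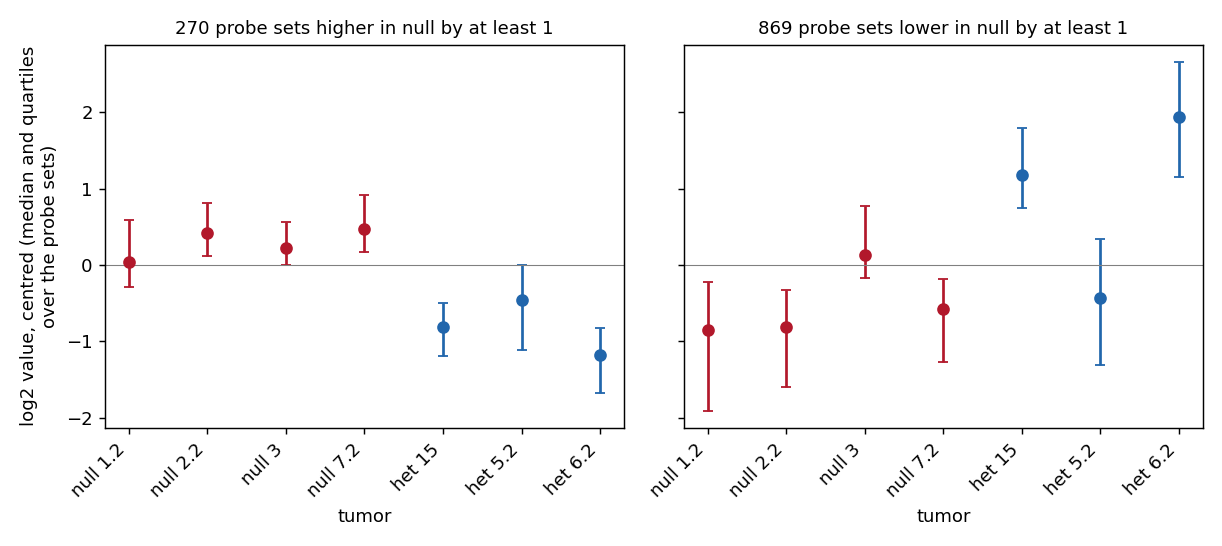
Centred log2 values by tumor of the probe sets higher (left) and lower (right) in INK4a null melanomas by at least 1, as the median (point) and quartiles (bars) over 270 and 869 probe sets; null tumors stand left of heterozygous tumors. On the right, heterozygous tumor 5.2 (median -0.43) lies with null tumors 1.2, 2.2 and 7.2, while null tumor 3 lies at 0.14.

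The single tumors differed in how far they departed from the series median. Null tumors had 336, 184, 361 and 341 probe sets above 1 (tumors 1.2, 2.2, 3 and 7.2), and heterozygous tumors had 710, 694 and 1149 (tumors 15, 5.2 and 6.2). Every heterozygous tumor thus had more probe sets far above the median than any null tumor. Below -1, the numbers were 896, 557, 254 and 493 in null tumors and 204, 735 and 523 in heterozygous tumors, and the groups overlapped. The median SD of single probe sets was similar in the groups, 0.22 over the 4 null and 0.21 over the 3 heterozygous tumors. At the 90th percentile the SD was 0.62 over the null and 0.69 over the heterozygous tumors.

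Among the control probe sets, 16 carry the name of a mouse transcript, and none of these passed the threshold in an exact permutation test. Gapdh, a glycolytic enzyme, had the smallest p among them. Its 5' probe set stood at 0.92, -0.31, -0.37 and -0.38 in null tumors 1.2, 2.2, 3 and 7.2, against 0.74, 1.05 and 0.81 in heterozygous tumors 15, 5.2 and 6.2. Null tumor 1.2 lay among the heterozygous tumors and the other 3 null tumors lay below them. The difference was -0.90 (exact permutation test, two-sided, p = 0.114, adjusted 0.339 over 19 control probe sets). The probe sets for the middle and the 3' end of Gapdh differed by -0.72 and -0.50, each with the same exact permutation p of 0.114.

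Beta-actin (Actb), the main actin of the cytoskeleton in non-muscle cells, varied more among null than among heterozygous tumors. At its 5' end null tumors 1.2, 2.2, 3 and 7.2 stood at 0.89, -0.01, -0.52 and -1.59, and heterozygous tumors 15, 5.2 and 6.2 at 0.47, 0.79 and 0.37 (difference -0.85, exact permutation p = 0.257). At its 3' end the difference was -0.21 (exact permutation p = 0.543). The 3' minus 5' difference of beta-actin signal is a measure used for RNA quality. Here each end was centred on its own series median, so the difference only places tumors against one another. It averaged 0.23 ± 0.61 in null tumors (SD, n = 4) and -0.40 ± 0.05 in heterozygous tumors (SD, n = 3, exact permutation p = 0.143). It ran from -0.54 to 0.94 in null tumors and from -0.46 to -0.37 in heterozygous tumors. With it as a covariate, limma called 15 probe sets at the adjusted threshold, of which null tumors were higher at 6 and lower at 9, and 11 of them were among the 29.

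For the transferrin receptor (Tfrc), which brings iron into the cell, null minus heterozygous was -0.36 in the 3' probe set (exact permutation p = 0.143) and -0.10 in the 5' probe set (exact permutation p = 0.571). Pyruvate carboxylase (Pcx), a mitochondrial enzyme that makes oxaloacetate, differed by -0.11 to 0.02 over its 4 probe sets, with exact permutation p-values of 0.543 to 0.8. The probe sets for 18S ribosomal RNA differed by 0.61 to 0.87 (exact permutation p of 0.143 to 0.314). At the middle of this RNA the groups did not overlap, and null tumor 2.2 stood far above the others, at 2.26.

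Control probe sets named for B1 and B2, which are families of short interspersed repeats of the mouse genome, separated the groups without overlap, although by little. They were singled out after their values were seen. The groups did not overlap at 4 of the 19 control probe sets, these 3 included, and at 11.2% of all probe sets tested. The 2 named for B2 share a repeat family and are not separate observations. The B1 probe set (MURINE_b1) stood at -0.42, 0, -0.11 and -0.03 in null tumors 1.2, 2.2, 3 and 7.2, against -0.57, -0.75 and -0.63 in heterozygous tumors 15, 5.2 and 6.2. All 4 null tumors lay above the 3 heterozygous tumors, and the difference was 0.51. At the 2 probe sets named for B2 (MUR_b2 and MURINE_B2) all null tumors lay below the heterozygous tumors, with differences of -0.23 and -0.14. Each of the 3 had an exact permutation p of 0.0571 (two-sided, adjusted 0.339 over 19 control probe sets), so none passed the threshold.

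The bacterial and phage transcripts that the standard Affymetrix protocol adds at hybridization had a mean over 9 control probe sets of -0.59, -0.08, 0.11 and 0.08 in null tumors 1.2, 2.2, 3 and 7.2, against -0.19, 0.07 and -0.01 in heterozygous tumors 15, 5.2 and 6.2. Null tumor 1.2 was the lowest of the 7 arrays by this measure. The transcripts with a poly-A tail that the same protocol adds to the RNA had a mean over 12 control probe sets of 0.05, 1.17, 0.09 and 0.31 in null tumors 1.2, 2.2, 3 and 7.2, against -0.18, 0.19 and 0.53 in heterozygous tumors 15, 5.2 and 6.2. Here null tumor 2.2 stood highest, the tumor that was also highest at 18S ribosomal RNA. Without it limma gave 0 probe sets past the adjusted threshold (2320 at an unadjusted p under 0.05), with a smallest adjusted p of 0.0508. Limma also gave 0 without heterozygous tumor 6.2 (1822 at an unadjusted p under 0.05), with a smallest adjusted p of 0.0653. The loss of all calls was thus not particular to tumor 2.2. The part of these array differences in the results above was not tested.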

How the data were processed

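RNA of 13 melanomas, 1 array each, was measured on Affymetrix mouse arrays. The values that the authors deposited, log values from GeneSpringGX read here as log2, have the 13-array median subtracted at each of 22690 probe sets. How probes were summarized and arrays normalized was not stated, and array medians lay between -0.05 and 0.05. A second deposited table, chosen by the authors for another comparison, was not used.

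INK4a null minus INK4a heterozygous was tested with limma 3.58.1 under R 4.3.3 (two-sided moderated test, Benjamini-Hochberg adjustment over 22626 probe sets, threshold 0.05) on 3 groups, with the ARF arrays pooled and used for the variance alone. No trend of the variance on the mean was used, because centred means hold no level. The script was tested on simulated data. No filter on low values was possible. The number of arrays limits the precision, with 0.19 the median standard error of a null minus heterozygous difference.

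Single values were compared by exact permutation. The Mann-Whitney test of the methods cannot go below 0.0571 with 4 and 3 tumors, so complete separation of the groups was counted instead. The rule for named genes gave, in the absence of gene annotation, the 2 lowest p-values among higher and among lower probe sets. Gene lists, chromosomes and gene means were not analysed here. The groups, lists and tests were chosen with earlier results of these data known. Alternatives covered the variance model, the arrays in the fit, normalization, array weights, label endings, the beta-actin ratio and leaving out each array.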

Additional observations from a re-analysis of the deposited data

Results flagged for a closer look

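Of 33 measures examined over the 4 INK4a null tumors, 10 had 1 tumor far from the other 3. Chance gives about 1 in 20, but several of the 10 are probe sets of the same transcript and are not independent. Null tumor 1.2 stood above the other null tumors at all 3 Gapdh probe sets, with 0.27 at the 3' end (the others at most -0.38), 0.92 at the 5' end (at most -0.31) and 0.52 in the middle (at most -0.38), and at 1 of the 4 Pcx probe sets, with 0.36 (at most -0.08). Null tumor 2.2 stood at 1.67 and 2.26 at the 5' and middle probe sets of 18S ribosomal RNA (the others at most 0.26 and 0.24), and it had 184 probe sets above 1, with 336 the next lowest number. Null tumor 3 lay at 32.2 on the first principal component, where the other null tumors were at most -36.4. At the called probe sets, null tumor 3 was the lowest null tumor at 1437997_x_at, at 0.0626 (the others at least 0.19), and the highest at 1451518_at, at 0.57 (the others at most 0.20); in both it stayed on the null side of the heterozygous tumors.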

How the results depend on the processing

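The alternatives without each ARF array and with each array centred on its median were chosen after seeing the data. From 29, the number of adjusted calls moved to 28 with a trend, all of them among the 29, 9 with ARF null as a group of its own (8 of the 29), 1 after quantile normalization, 0 when limma was given the 7 INK4a arrays by themselves (2885 before adjustment), 15 with a covariate for the beta-actin ratio, and 3149 with array weights, which also gave 6650 at an unadjusted p under 0.05. Those weights ran from 0.44 for heterozygous tumor 5.2 and for ARF heterozygous tumor 8 to 3.48 for heterozygous tumor 15. In the 5 INK4a tumors whose label number has a decimal ending (3 null and 2 heterozygous), limma gave 0 past the adjusted threshold and 2072 at an unadjusted p under 0.05, and 5515 did not overlap; with the ending as a covariate 36 passed. Leaving out each INK4a array gave 0 to 620 past the adjusted threshold, against 29 (0, 0, 3, 12, 19, 175 and 620), 1822 to 4250 with an unadjusted p below 0.05, where all arrays gave 3185, and 3004 to 6758 without overlap, against 2536 (3775 without null tumor 3, 3953 without heterozygous tumor 15, 4796 without null tumor 1.2), where fewer tumors separate more easily. Of the ARF arrays, 9 passed without tumor 14, 9 or 10 and 63 without tumor 8. The cause was not tested for any of these. None of the 4 named probe sets changed sign in 22 alternatives, and each missed the adjusted threshold in 4 to 6 of them. Over all 22, their limma adjusted p ran from 0.0016 to 0.154. As each separated the groups, leaving out tumors could not turn its sign. Gene means and gene lists were not analysed here. No paired analysis was possible because null and heterozygous tumors carry different label numbers. Signal over background is unknown.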
